A study of Mus musculus with 22 samples.

Results

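The transcripts of 8 mediators of necroptosis and of death-receptor signalling, Zbp1, Mlkl, Ripk3, Ripk1, Casp8, Fadd, Tnfrsf1a and Cflar, were followed in bulk RNA sequencing of mouse small intestine. They were found by Ensembl identifier, 8 of the 54838 genes counted, and all 8 passed the filter on low counts in every fit. The FVB/N females, 8 to 14 weeks old in the study's methods, had either an intact glucocorticoid receptor (GRWT) or one with a point mutation that weakens its dimerisation (GRDim), and drank plain water or 25 mM ZnSO4 for 7 days. The GRDim change is in the germline, so every cell type of the tissue carries it. There were 5 GRWT water, 5 GRWT zinc, 6 GRDim water and 6 GRDim zinc libraries, 22 in all. The series text also speaks of dexamethasone, which no sample label gives.

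Necroptosis is a lytic, caspase-independent form of cell death. The kinases RIPK1 and RIPK3 meet through a shared interaction motif, or the nucleic acid sensor ZBP1 recruits RIPK3 directly, and RIPK3 then phosphorylates the pseudokinase MLKL, which permeabilises the plasma membrane. TNF reaches the same machinery through TNFR1, the product of Tnfrsf1a: the adaptor FADD and the protease caspase-8 trigger apoptosis and, by cleaving the kinases, hold necroptosis back, while cFLIP, the product of Cflar, restrains caspase-8. In the gut, epithelium that loses caspase-8 or FADD undergoes necroptosis, with loss of Paneth cells, and several of these genes, Zbp1 and Mlkl above all, are known interferon targets.

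The libraries differed in how much gut wall they held, and levels are therefore given apart for 2 classes: muscle-rich libraries, with over 100 CPM (gene counts scaled by the library's total count) of the smooth muscle myosin gene Myh11, and muscle-poor ones. Myh11 measured 298 to 463 CPM in 12 muscle-rich libraries and 3.22 to 20.5 CPM in 10 muscle-poor ones. The tissue labels, ileum in 12 libraries and IEC (intestinal epithelial cells, ileum that was lysed and scraped) in 10, did not follow this split: 7 libraries labelled IEC were muscle-rich and 7 labelled ileum were muscle-poor. In GRDim mice the muscle-rich libraries on water were all labelled IEC and those on zinc all labelled ileum, and the muscle-poor ones the reverse. Within a class, drinking water and tissue label therefore cannot be told apart in GRDim mice. Muscle-rich GRWT held 1 ileum and 2 IEC libraries under each water, and muscle-poor GRWT only libraries labelled ileum. Totals lay between 13149951 and 15620744 counts, so that 3 counts, the floor used here, corresponded to 0.192 to 0.228 CPM. No label links libraries to animals, so p-values measure the spread between these libraries, which may in part be technical. The zinc-responsive metallothionein Mt1 matched the labels, at 29.4 to 152 CPM on water and 1213 to 2884 CPM on zinc. One library stood apart: GRWT zinc ileum replicate 3, muscle-poor, had 11.7 CPM of the ileal bile acid binding protein Fabp6, against 4387 to 10866 CPM elsewhere. Several values of Zbp1, Mlkl, Ripk3 and Tnfrsf1a that rest on this library are given with and without it.

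The genes are placed here on GRCm38 (GENCODE vM21). Zbp1 lies at chr2:173206612-173218923 on the minus strand, Mlkl at chr8:111311797-111338177 (minus), Ripk3 at chr14:55784995-55788865 (minus) and Ripk1 at chr13:34002363-34037147 (plus). Casp8 lies at chr1:58795374-58847503 (plus) and, on the same chromosome and strand, its relative Cflar at chr1:58711508-58758884. Fadd lies at chr7:144577318-144582463 (minus) and Tnfrsf1a at chr6:125349362-125362484 (plus). The exons of Ripk1 share 241 bases with Serpinb6a on the opposite strand, which had 221922 counts against 25785 for Ripk1, and the strand setting of the counting is not given in the sources used here, so the level of Ripk1 is uncertain. Fadd shares 239 exon bases with its antisense gene Faddos, which had 15 counts in all.

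Promoter windows of 300 bases, most of them before and 50 after the annotated start, from the RefSeq table on GRCm38.p6 matched 7 of the 8 genes, in 8 windows because Ripk1 has a pair of starts. They were searched on both strands for the interferon-stimulated response element (ISRE) core, written GAAA, any 2 bases, GAAA, for the gamma-activated site (GAS), written TTC, any 3 bases, GAA, and for the glucocorticoid response element. The ISRE core was in 3.44% of all 32851 windows, GAS in 8.3% and the glucocorticoid response element in 0.475%. Of the 7 genes, 2 held an ISRE core (Cflar and Ripk1), 2 held a GAS (Tnfrsf1a and Ripk1) and 0 held the glucocorticoid response element. Zbp1 is the gene without a window, so its promoter was not searched. Mlkl and Ripk3 held none of these letters in their windows, which says nothing about the factors. Their windows are shown because both transcripts rose in GRDim mice, and those of Ripk1 (its second start) and Cflar because they hold the ISRE core. All are written 5′ to 3′ on the gene's strand, with matched letters in capitals: in Ripk1 an ISRE core at −5 and GAS matches at −108 and −11 from the start, the latter overlapping the ISRE core, and in Cflar an ISRE core at 6. The windows lie at chr8:111338156-111338455 (Mlkl), chr14:55788808-55789107 (Ripk3), chr13:34002624-34002923 (Ripk1) and chr1:58711241-58711540 (Cflar).
Mlkl: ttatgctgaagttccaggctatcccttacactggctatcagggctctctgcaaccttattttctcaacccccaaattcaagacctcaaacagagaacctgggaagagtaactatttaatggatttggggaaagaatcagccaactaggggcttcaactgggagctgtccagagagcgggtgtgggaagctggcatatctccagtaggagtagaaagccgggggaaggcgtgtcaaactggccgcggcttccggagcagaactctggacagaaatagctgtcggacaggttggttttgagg
Ripk3: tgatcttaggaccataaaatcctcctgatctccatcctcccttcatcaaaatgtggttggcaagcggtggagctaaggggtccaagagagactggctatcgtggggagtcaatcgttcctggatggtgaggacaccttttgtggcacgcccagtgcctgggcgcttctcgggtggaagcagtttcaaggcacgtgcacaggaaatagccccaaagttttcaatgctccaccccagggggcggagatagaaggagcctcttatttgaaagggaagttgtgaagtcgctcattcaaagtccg
Ripk1: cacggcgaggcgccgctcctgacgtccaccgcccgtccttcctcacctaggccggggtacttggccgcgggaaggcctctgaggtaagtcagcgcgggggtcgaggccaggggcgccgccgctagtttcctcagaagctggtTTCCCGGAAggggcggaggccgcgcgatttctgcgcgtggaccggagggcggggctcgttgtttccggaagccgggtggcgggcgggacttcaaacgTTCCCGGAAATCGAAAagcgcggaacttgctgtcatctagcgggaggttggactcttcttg
Cflar: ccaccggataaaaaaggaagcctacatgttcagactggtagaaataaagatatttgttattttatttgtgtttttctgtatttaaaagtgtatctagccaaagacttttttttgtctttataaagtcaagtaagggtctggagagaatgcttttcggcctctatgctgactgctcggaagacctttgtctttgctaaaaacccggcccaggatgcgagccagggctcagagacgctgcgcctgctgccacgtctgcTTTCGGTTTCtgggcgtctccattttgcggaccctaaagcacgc

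Per kilobase of exon, the protease gene Casp8 and the receptor gene Tnfrsf1a had the highest levels of the 8 in GRWT water libraries of both classes. In muscle-rich GRWT water libraries the order was Casp8, at 65.7 ± 2.83 CPM per kb (SD, n = 3), then Tnfrsf1a at 44.0 ± 0.423, Ripk3 at 11.4 ± 0.343, Cflar at 10.1 ± 0.339 and Ripk1 at 8.56 ± 0.358 CPM per kb. Mlkl, at 5.55 ± 0.215, and Fadd, at 5.20 ± 0.505 CPM per kb, came next and did not differ beyond their spread. Zbp1 was lowest, at 3.38 ± 0.539 CPM per kb. In muscle-poor GRWT water libraries (n = 2) Zbp1 came instead after Casp8 and Tnfrsf1a, at 26.6 ± 6.44 CPM per kb, beside Ripk3 at 20.96 ± 2.20, and these 2 did not differ beyond their spread. Casp8 and Tnfrsf1a measured 76.9 and 54.8 CPM per kb, and Fadd was lowest, at 6.08 CPM per kb. Cflar and Ripk1 have the longest exon unions of the 8, 12669 and 8344 bases, which lowers their per-kilobase level.

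In muscle-rich libraries on water, the ZBP1-RIPK3-MLKL arm of necroptosis was higher in GRDim than in GRWT mice. Zbp1, the sensor, measured 14.1, 10.5 and 11.2 CPM in GRWT and 108, 111 and 105 CPM in GRDim. Every GRDim library was above every GRWT one, 9.04 times higher on the means, a log2 fold change of 3.19 ± 0.18 (SE; edgeR quasi-likelihood test, adjusted p = 1.25e-06). Mlkl, the executioner, measured 13.2, 12.9 and 12.2 CPM in GRWT and 38.3, 42.3 and 37.1 CPM in GRDim. Again no libraries overlapped, and Mlkl was 3.07 times higher (log2 1.63 ± 0.09, edgeR adjusted p = 9.9e-09). Ripk3, the kinase that activates MLKL, measured 26.9, 25.5 and 25.6 CPM in GRWT and 51.5, 52.2 and 48.6 CPM in GRDim. It was 1.95 times higher without overlap (log2 0.98 ± 0.10, edgeR adjusted p = 6.93e-06). The rise thus became smaller from the sensor to the executioner to the kinase. All 3 also passed when any single library was left out, with log2 fold changes of 3.10 to 3.32 for Zbp1, 1.57 to 1.67 for Mlkl and 0.95 to 1.01 for Ripk3. With the tissue label as a covariate over all 22 libraries, Mlkl (log2 1.03) and Ripk3 (log2 0.67) passed and Zbp1 did not.

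Among the genes of the death-receptor complex, only Casp8 passed in this comparison, and barely. Casp8, the initiator protease, measured 193, 196 and 181 CPM in GRWT and 220, 216 and 201 CPM in GRDim. The groups did not overlap, but the log2 difference was only 0.17 ± 0.06 (edgeR adjusted p = 0.0424), and it no longer passed with DESeq2 or in 6 of the 12 fits that left out 1 library. Ripk1, the kinase shared by survival and death signals, had a log2 difference of 0.11 (adjusted p = 0.111). For Fadd, the adaptor, it was 0.09 (adjusted p = 0.478), for Tnfrsf1a, the TNF receptor, 0.08 (adjusted p = 0.276), and for Cflar, the caspase-8 inhibitor, −0.10 (adjusted p = 0.174). In all, 4 of the 8 genes were higher and 0 lower by edgeR, where 19.7% of all 15947 genes tested were higher and 18.9% lower. The median log2 difference was 0.14 over the 8 genes and −0.0028 over all genes tested.

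**Figure D1:**
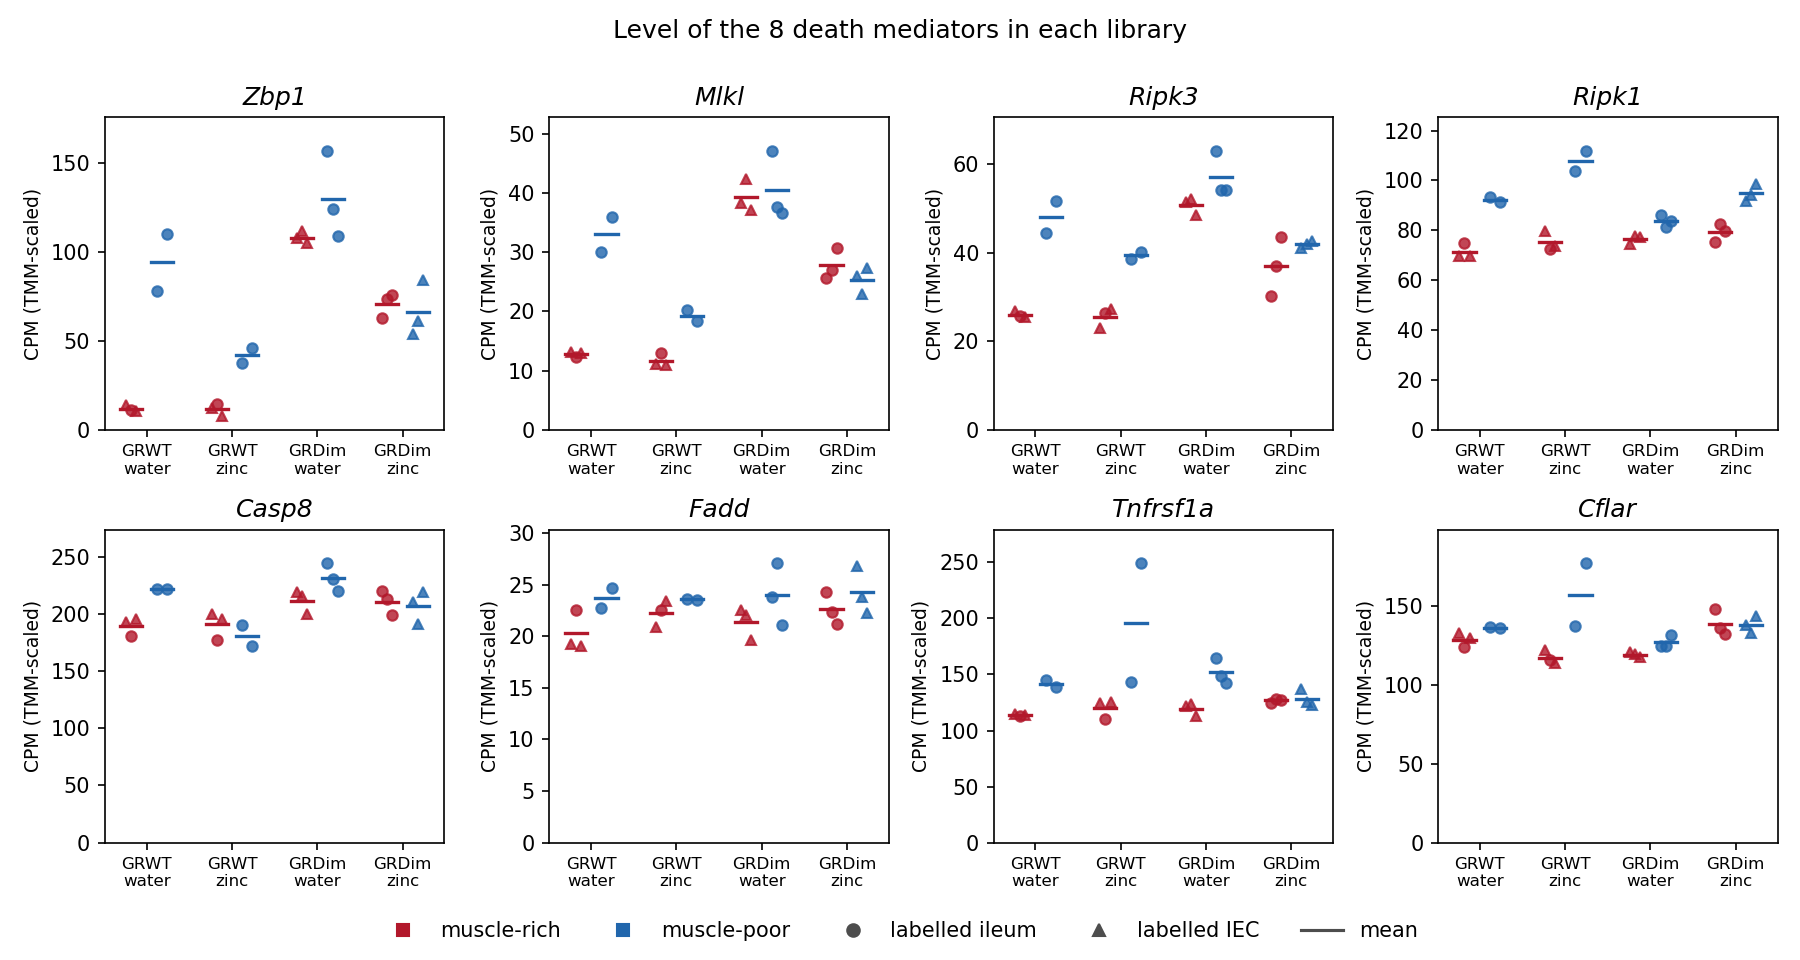
Level of each of the 8 genes in CPM (y axis, linear) in every library, by condition (x axis), with muscle-rich libraries in red, muscle-poor in blue, circles for libraries labelled ileum, triangles for IEC and a line at the mean. In muscle-rich libraries Zbp1 lies at 7.57 to 14.8 CPM in all 6 GRWT libraries and at 63.0 to 111 CPM in all 6 GRDim libraries, while Fadd stays between 19.1 and 24.3 CPM.

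Markers of other cell types moved with these genes. The summed level of 10 intraepithelial T cell markers, none of them at 0 in any library, was 78.8 to 121 CPM in muscle-rich GRWT water and 467 to 528 CPM in GRDim water libraries. All 10 markers passed as higher, with log2 fold changes of 2.75 for granzyme B (Gzmb) and 2.29 for Cd8a, and a median of 2.13. B and plasma cell markers summed to 1812 to 2266 against 4363 to 5462 CPM, with 3 of 8 passing as higher and most of the sum in Jchain, the joining chain of secreted antibodies (1464 to 4053 CPM on the means). Macrophage and dendritic cell markers summed to 299 to 386 against 579 to 615 CPM, with 6 of 10 passing as higher. Paneth cell markers moved the other way, from 10660 to 12948 CPM in GRWT to 6215 to 8112 CPM in GRDim, with 8 of 10 passing as lower and 1 as higher. Epithelial markers summed to 18866 to 19386 against 20074 to 21057 CPM, with 4 of 10 passing as higher and 2 as lower. Smooth muscle markers summed to 2492 to 2740 against 1927 to 2156 CPM, with 6 of 10 passing as lower. Enteric neuron and glia markers summed to 33.9 to 39.8 against 19.8 to 27.3 CPM, with 4 of 9 passing as lower. The part of these cell types in the result was not tested. In bulk tissue, more cells of a type and more RNA per cell cannot be told apart.

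On zinc, muscle-rich GRDim libraries again had more of the 3 necroptosis genes than GRWT libraries, by smaller factors. Zbp1 measured 12.5, 7.57 and 14.8 CPM in GRWT zinc and 63.0, 73.4 and 75.5 CPM in GRDim zinc libraries. No libraries overlapped, and the log2 fold change was 2.58 ± 0.18 (edgeR adjusted p = 1.75e-05). Mlkl measured 11.1, 10.9 and 13.03 CPM in GRWT zinc and 25.6, 27.0 and 30.7 CPM in GRDim zinc libraries. Its groups were also apart (log2 1.24 ± 0.09, edgeR adjusted p = 5.21e-07). Ripk3 measured 22.9, 27.4 and 26.5 CPM against 30.2, 37.1 and 43.6 CPM, a log2 fold change of 0.52 ± 0.11 (edgeR adjusted p = 0.00378). Its lowest GRDim library was above its highest GRWT library by less than 3 CPM. Cflar passed here too, with 122, 114 and 116 CPM in GRWT zinc and 148, 136 and 132 CPM in GRDim zinc libraries. These groups did not overlap (log2 0.23 ± 0.05, edgeR adjusted p = 0.00868). Casp8, at a log2 difference of 0.13 (adjusted p = 0.179), Ripk1 at 0.06, Fadd at 0.01 and Tnfrsf1a at 0.07 did not pass. Thus 4 of 8 genes were higher and 0 lower, where 9.81% of all genes tested were higher and 9% lower. The GRDim libraries here were all labelled ileum and 2 of the 3 GRWT libraries IEC. With the tissue label as a covariate over all 22 libraries, 0 of the 8 genes passed on zinc. The T cell markers summed to 72.1 to 105 CPM in GRWT zinc and 259 to 265 CPM in GRDim zinc libraries, with 9 of 10 passing as higher, and 8 of 10 Paneth cell markers passed as lower. Of B and plasma cell markers 4 of 8 passed as higher, and of epithelial markers 4 of 10. Their part in the result was not tested.

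The 3 necroptosis genes were lower in zinc than in water libraries of muscle-rich GRDim mice, and no change with zinc was detected in GRWT libraries of this class. Zbp1 was at 0.654 times its water level in GRDim mice (water and zinc values as above), with every zinc library below every water library. The log2 fold change was −0.63 ± 0.16 (edgeR adjusted p = 0.0408), a call that held in only 3 of the 12 fits that left out 1 library, where the adjusted p ran from 0.00128 to 0.152. Mlkl fell to 0.709 times its water level without overlap (log2 −0.52 ± 0.09, edgeR adjusted p = 0.0025), and this call held in all 12 of those fits. Ripk3 fell to 0.728 times (log2 −0.48 ± 0.10, edgeR adjusted p = 0.0121), a call lost without GRDim water IEC replicate 5 and without GRDim zinc ileum replicate 2. Cflar moved the other way, from 120, 119 and 117 CPM on water to 148, 136 and 132 CPM on zinc. It was higher in every zinc library (log2 0.20 ± 0.05, edgeR adjusted p = 0.0362), and the call held in 6 of the 12 fits. So 3 genes were lower and 1 higher, where 3.24% of all genes tested were lower and 4.46% higher. With the tissue label as covariate, or with 8 means over all 22 libraries, 0 of the 8 genes passed, though Zbp1 differed by −0.77 with the label and −0.61 with 8 means, and in this class zinc cannot be told apart from the tissue label. The T cell markers fell too in this comparison, from 467 to 528 down to 259 to 265 CPM in sum, with 5 of 10 passing as lower. Macrophage and dendritic cell markers went from 579 to 615 down to 386 to 508 CPM, with 1 of 10 (Itgam) passing as lower. Of 10 Paneth cell markers, 1 (Reg3g, log2 −1.61) passed as lower and 9 did not pass. The median log2 difference over these 10 was 0.41, of the other sign. The part of these cell types in the result was not tested.

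In muscle-rich GRWT libraries the zinc-to-water log2 difference was −0.03 ± 0.20 for Zbp1 (edgeR adjusted p = 0.972), −0.12 ± 0.10 for Mlkl (adjusted p = 0.648) and −0.02 ± 0.11 for Ripk3 (adjusted p = 0.969). The libraries of the 2 waters overlapped for Zbp1, Mlkl and Ripk3. By edgeR 0 of the 8 genes passed, with 1 (Cflar, −0.13) at an unadjusted p under 0.05 and 0 by DESeq2. Over all genes tested, 0.383% passed in either direction, 11.5% had an unadjusted p under 0.05 and 1.46% passed by DESeq2. Whether zinc acted differently in the 2 genotypes was tested by the interaction, which 0 of the 8 genes passed by edgeR, where 0.263% of all genes did. Here 4 genes (Zbp1, Mlkl, Ripk3 and Cflar) had an unadjusted p under 0.05, against 15.5% of all genes, and Cflar passed by DESeq2, against 2.2% of all genes. The interaction was −0.60 ± 0.26 for Zbp1 (edgeR adjusted p = 0.31), −0.39 ± 0.13 for Mlkl (adjusted p = 0.173), −0.46 ± 0.15 for Ripk3 (adjusted p = 0.169) and 0.33 ± 0.08 for Cflar (adjusted p = 0.0786). A different zinc response in the 2 genotypes was thus not shown.

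**Figure D2:**
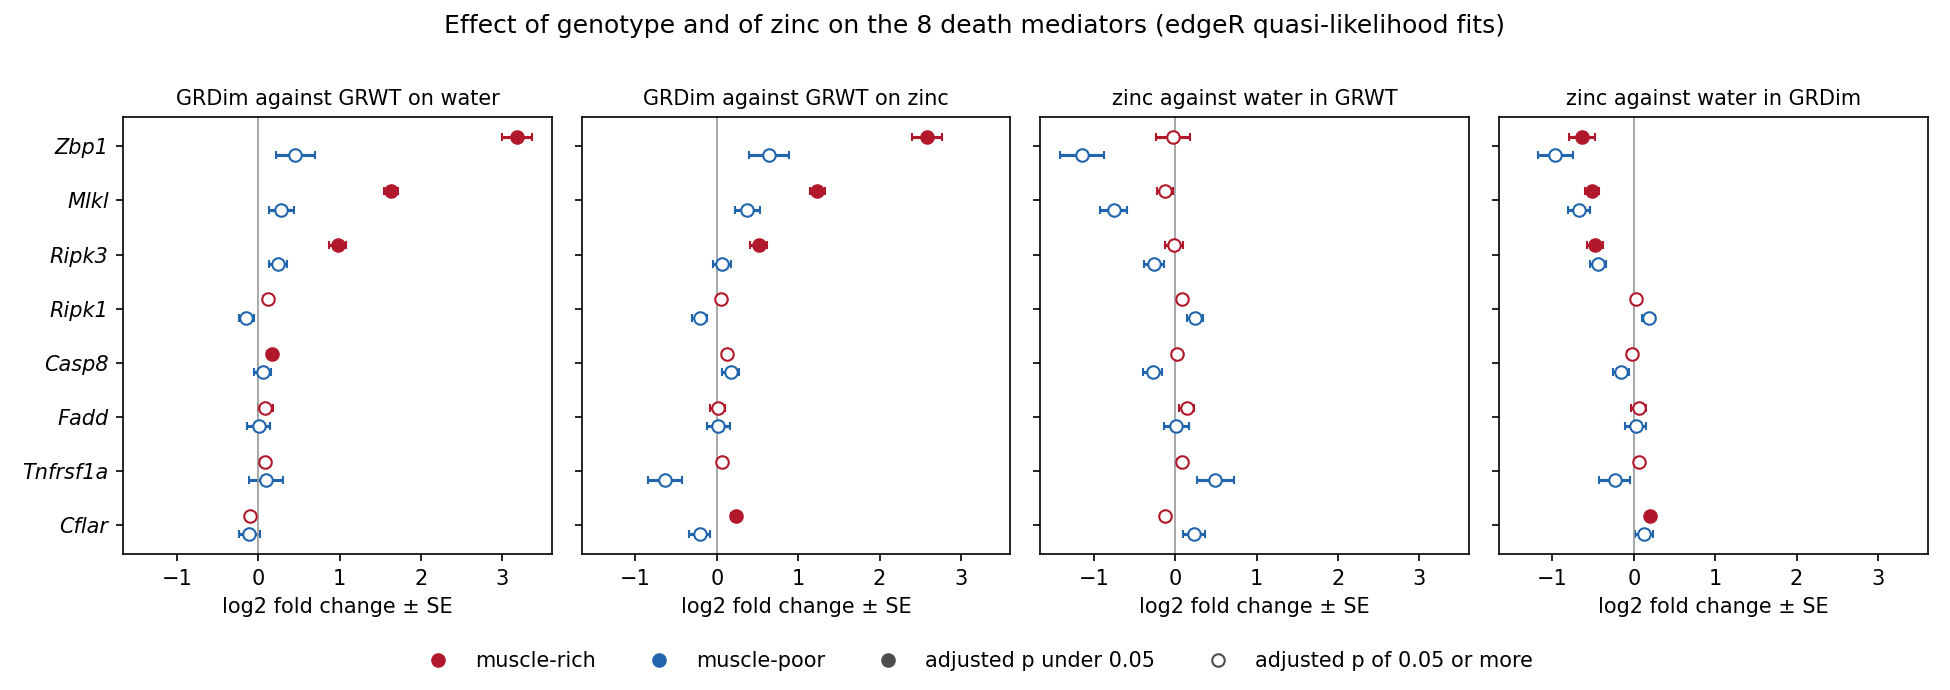
Log2 fold change with its SE (x axis) of each of the 8 genes (y axis) in 4 comparisons, one panel each, muscle-rich in red and muscle-poor in blue, filled points passing at an adjusted p under 0.05 by edgeR. Filled points are seen only in the muscle-rich class, led by Zbp1 at 3.19 (genotype on water) and 2.58 (genotype on zinc).

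Zinc did not bring GRDim libraries down to the GRWT water level in the muscle-rich class. Zbp1 in GRDim zinc was 5.92 times its GRWT water level (log2 2.55, edgeR adjusted p = 2.07e-05), Mlkl 2.17 times (log2 1.11, adjusted p = 1.78e-06) and Ripk3 1.42 times (log2 0.50, adjusted p = 0.00498). For each of these 3 genes the lowest GRDim zinc library lay above the highest GRWT water library. These 3 of 8 were higher, where 9.29% of all genes tested were, but 0 of 8 passed over all 22 libraries with the tissue label or the muscle class as covariate. Such a fit gives 1 value for both muscle classes, and Zbp1 pointed down in the muscle-poor one (log2 −0.51). It does not test the muscle-rich class alone. Ripk1 and Tnfrsf1a, both at an adjusted p of 0.0851 (log2 0.14 and 0.15), did not pass. Of the markers, 9 of 10 of T cells and 3 of 8 of B and plasma cells passed as higher in this comparison, and 8 of 10 of smooth muscle and 7 of 10 of Paneth cells as lower, and their part in it was not tested. This comparison, that of genotype on water and that of zinc in GRDim mice share libraries with each other and are not independent.

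In muscle-poor libraries none of the 8 genes passed in any comparison by edgeR. Zbp1 measured 78.0 and 110 CPM in GRWT water and 157, 124 and 109 CPM in GRDim water libraries. The groups overlapped (log2 0.46 ± 0.24, edgeR adjusted p = 0.938). Mlkl measured 30.0 and 36.0 CPM in GRWT water and 47.1, 37.6 and 36.6 CPM in GRDim water libraries. All GRDim libraries were higher, the closest by less than 1 CPM (log2 0.28, edgeR adjusted p = 0.938). Ripk3 measured 44.5 and 51.6 CPM against 63.1, 54.2 and 54.3 CPM, again without overlap (log2 0.24, edgeR adjusted p = 0.915). By edgeR 0 of 8 genes passed, 0 had an unadjusted p under 0.05 and 0 passed by DESeq2, and over all 13908 genes tested these shares were 0.0288%, 5.63% and, by DESeq2, 0.382%. Without GRWT zinc ileum replicate 3, which is in neither group but enters the shared estimate of the spread, 127 genes of all 14339 tested passed as higher and 326 as lower, and the adjusted p was 0.375 for Zbp1, 0.252 for Mlkl and 0.192 for Ripk3.

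On zinc, Zbp1 measured 37.4 and 46.1 CPM in muscle-poor GRWT and 53.6, 61.0 and 84.1 CPM in GRDim libraries. The GRDim libraries were all higher (log2 0.64, edgeR adjusted p = 0.183). Mlkl was at 20.2 and 18.3 CPM in GRWT and 25.9, 22.8 and 27.3 CPM in GRDim zinc libraries (log2 0.37, adjusted p = 0.198). Ripk3 had a log2 difference of only 0.06 (edgeR adjusted p = 0.735). Tnfrsf1a had a log2 difference of −0.64 (adjusted p = 0.15) that came from a single library. GRWT zinc ileum replicate 3 measured 249 CPM of Tnfrsf1a and its partner 143 CPM, and without replicate 3 the difference was −0.15. Without that library Zbp1 differed by 0.83 and Mlkl by 0.34. The GRWT zinc group then holds a single library, whose spread is taken from the other groups. With all libraries 0 of 8 passed by edgeR, 3 (Zbp1, Mlkl and Tnfrsf1a) had an unadjusted p under 0.05, and 0 passed by DESeq2. Over all genes these shares were 0.0575%, 22.9% and 6.85%.

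Zinc libraries of the muscle-poor class were lower in Zbp1, Mlkl and Ripk3 than water libraries in both genotypes, without passing the test. In GRWT, Zbp1 went from 78.0 and 110 CPM on water to 37.4 and 46.1 CPM on zinc. The groups did not overlap (log2 −1.15 ± 0.27, edgeR adjusted p = 0.228). Mlkl went from 30.0 and 36.0 to 20.2 and 18.3 CPM (log2 −0.76 ± 0.17, adjusted p = 0.228) and Ripk3 from 44.5 and 51.6 to 38.7 and 40.3 CPM (log2 −0.26, adjusted p = 0.307). By edgeR 0 of 8 passed, 4 (Zbp1, Mlkl, Ripk1 and Casp8) had an unadjusted p under 0.05, and Zbp1 and Mlkl passed by DESeq2. Over all genes these shares were 0.0431%, 17.1% and 3.79%. Without GRWT zinc ileum replicate 3 the difference was −1.34 for Zbp1 (adjusted p = 0.269), −0.72 for Mlkl (adjusted p = 0.187) and −0.32 for Ripk3 (adjusted p = 0.452), with a single GRWT zinc library assumed to vary like the other groups. The cell markers of the 2 GRWT zinc libraries lay far apart: T cell markers summed to 146 CPM in replicate 2 and 317 CPM in replicate 3, against 201 to 426 CPM on water. Paneth cell markers summed to 6368 and 2494 CPM, against 5744 to 8553 CPM on water, and their part in the result was not tested.

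In muscle-poor GRDim mice, Zbp1 went from 157, 124 and 109 CPM on water to 53.6, 61.0 and 84.1 CPM on zinc. The groups were apart (log2 −0.97 ± 0.22, edgeR adjusted p = 0.296). Mlkl went from 47.1, 37.6 and 36.6 to 25.9, 22.8 and 27.3 CPM (log2 −0.67 ± 0.13, adjusted p = 0.214) and Ripk3 from 63.1, 54.2 and 54.3 to 41.2, 42.0 and 42.7 CPM (log2 −0.44 ± 0.10, adjusted p = 0.299). By edgeR 0 of 8 passed, 3 (Zbp1, Mlkl and Ripk3) had an unadjusted p under 0.05, and Zbp1 and Mlkl passed by DESeq2. Over all genes these shares were 0.0575%, 7.89% and 0.633%. Without GRWT zinc ileum replicate 3, which is in neither group but enters the shared estimate of the spread, Mlkl (adjusted p = 0.0066) and Ripk3 (adjusted p = 0.013) passed and Zbp1 did not (adjusted p = 0.0531), where 2.11% of all 14339 genes tested passed as lower. T cell markers summed to 317 to 500 CPM on water and 186 to 283 CPM on zinc in these libraries, macrophage and dendritic cell markers to 76.6 to 89.9 and 46.9 to 75.05 CPM, and enteric neuron and glia markers to 3.04 to 4.00 and 5.77 to 12.1 CPM, and their part in the result was not tested. Taking both classes, all 6 GRDim zinc libraries were below all 6 GRDim water libraries for Zbp1, for Mlkl and for Ripk3. This order held under either tissue label and in either muscle class, each of which holds 3 libraries per water. Within a label, however, the muscle class changed with the water, and within a class the label did. The share of all genes with such an order was not counted.

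The other muscle-poor comparisons gave no call. GRDim zinc against GRWT water had a log2 difference of −0.51 for Zbp1 (edgeR adjusted p = 0.782) and −0.38 for Mlkl (adjusted p = 0.732), or adjusted p = 0.307 and 0.132 without GRWT zinc ileum replicate 3, with 0 of 8 passing, 1 (Mlkl) at an unadjusted p under 0.05 and 0 by DESeq2, against 0.0791%, 6.51% and 0.382% of all genes. In this class, unlike the muscle-rich one, the difference pointed down. The interaction of zinc and genotype was passed by 0 of 8 genes, with 1 (Tnfrsf1a) at an unadjusted p under 0.05 and 0 by DESeq2, against 0%, 4.66% and 0.0153% of all genes. For Tnfrsf1a it was −0.73 (edgeR adjusted p = 0.749), a value that includes GRWT zinc ileum replicate 3 with its 249 CPM.

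For Zbp1, Mlkl and Ripk3 the 2 classes differed more in GRWT than in GRDim mice. In a fit over all 22 libraries with 8 means (16389 genes tested), muscle-rich GRWT water libraries had less Zbp1 than muscle-poor ones (log2 −2.98 ± 0.24, edgeR adjusted p = 2.82e-08), less Mlkl (−1.37, adjusted p = 1.14e-07) and less Ripk3 (−0.88, adjusted p = 1.02e-05). Ripk1 (−0.37, adjusted p = 0.000254) and Casp8 (−0.23, adjusted p = 0.0397) were lower too, 5 of 8 genes, where 15.6% of all genes tested were lower. In GRDim water libraries the classes differed little: Zbp1 by −0.27 ± 0.20 (adjusted p = 0.327), Mlkl by −0.04 ± 0.11 and Ripk3 by −0.17 ± 0.11. Only Tnfrsf1a passed there (−0.35, adjusted p = 0.0419), where 16.4% of all genes were lower. On zinc the classes differed in GRWT by −1.84 for Zbp1, −0.72 for Mlkl and −0.62 for Ripk3. In GRDim zinc libraries these values were 0.09, 0.13 and −0.18. The GRWT zinc values rest in part on GRWT zinc ileum replicate 3, without which that of Zbp1 was −1.65. T cell markers, too, summed to 78.8 to 121 CPM in muscle-rich and 201 to 426 CPM in muscle-poor GRWT water libraries, but to 467 to 528 and 317 to 500 CPM in GRDim water libraries, and their part was not tested.

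Whether the genotype difference itself depended on the class was tested in the same fit. On water, the GRDim-to-GRWT difference was larger in muscle-rich libraries by 2.71 ± 0.31 for Zbp1 (edgeR adjusted p = 1.4e-04), 1.32 ± 0.17 for Mlkl (adjusted p = 3.4e-04) and 0.71 ± 0.16 for Ripk3 (adjusted p = 0.0336), where 1.31% of all genes passed. Without GRWT zinc ileum replicate 3 all 3 genes passed again (Ripk3 0.71, adjusted p = 0.00516), where 7.11% of all genes did. On zinc it was larger by 1.93 for Zbp1 (adjusted p = 0.0048) and 0.86 for Mlkl (adjusted p = 0.0167), and by 0.44 for Ripk3 (adjusted p = 0.12), where 2.87% of all genes passed. Without GRWT zinc ileum replicate 3 the zinc value for Zbp1 was 1.73 (adjusted p = 0.0521) and no longer passed, that for Mlkl was 0.88 (adjusted p = 0.0229), and 1.1% of all genes passed. For GRDim zinc against GRWT water the classes differed by 3.07 for Zbp1, 1.5005 for Mlkl and 0.70 for Ripk3 (adjusted p = 0.0216 for Ripk3), where 2.82% of all genes passed, and 11.6% without that library. The class was set by a measured gene and, in GRDim mice, is fixed by the tissue label and the water, so these values describe the libraries.

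**Figure D3:**
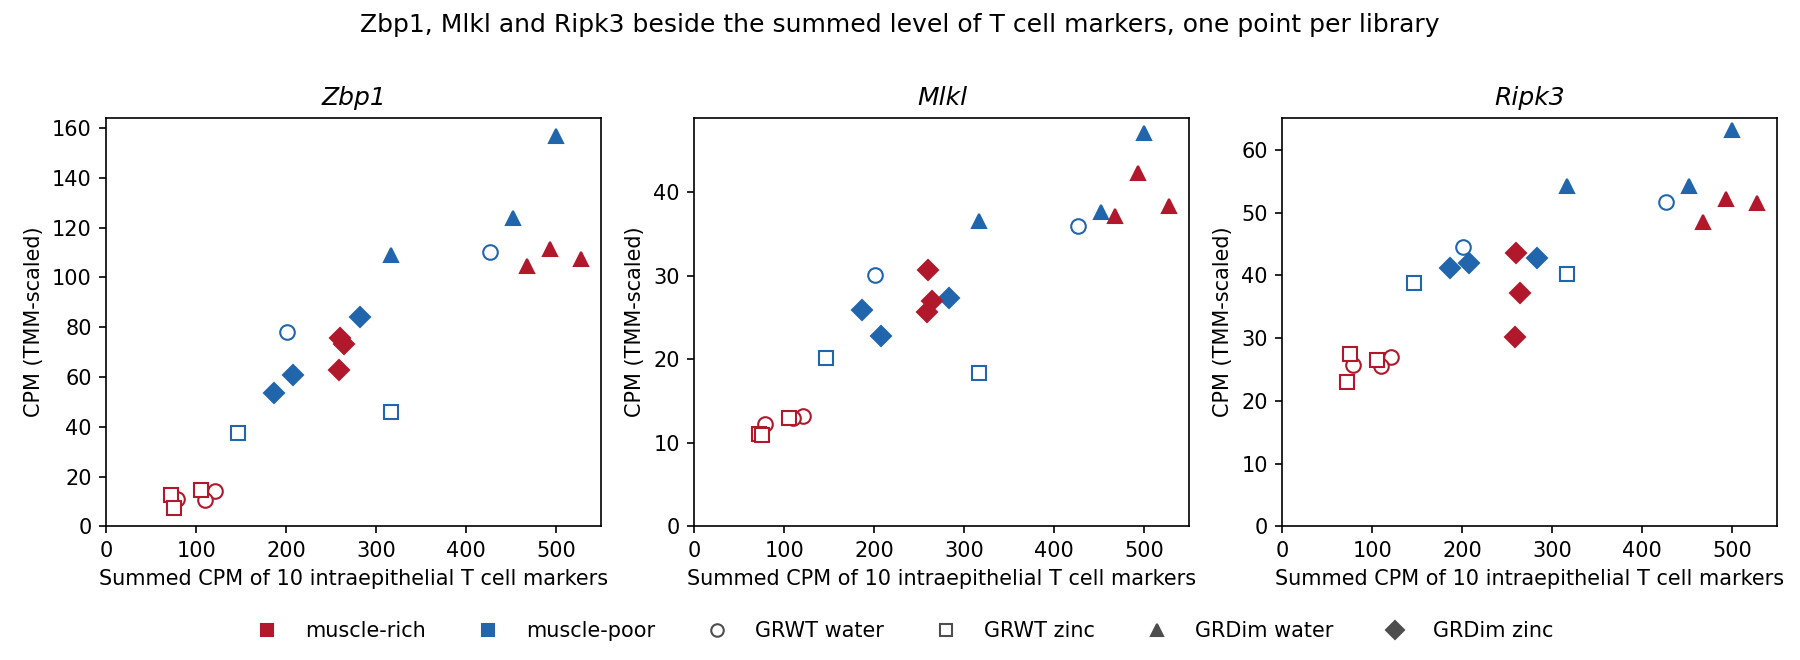
Level of Zbp1, Mlkl and Ripk3 in CPM (y axes) against the summed CPM of 10 intraepithelial T cell markers (x axis), each point a library, coloured by class and marked by condition. Muscle-rich GRWT libraries gather at 72.1 to 121 CPM of T cell markers and low levels of the 3 genes, and GRDim water libraries of that class lie at 467 to 528 CPM with high levels.

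Around the 8 genes, the death pathway was described by 4 lists, in muscle-rich libraries. Of 14 tested death ligands, receptors and adaptors, 8 were higher and 2 lower in GRDim on water (median log2 0.39), where 19.7% of all genes tested were higher and 18.9% lower. Tnf, the ligand of TNFR1, rose from a low level of 0.942 to 3.09 CPM (log2 1.71 ± 0.43, edgeR adjusted p = 0.00712), and Fasl, the ligand of the death receptor Fas, rose by a log2 of 1.32. Tnfrsf1b, the other TNF receptor, rose by 0.87 and Tlr4, the endotoxin receptor, by 0.84. Of 19 genes of the TNF receptor complex and its ubiquitin regulators, 7 were higher and 1 lower (median 0.09), against the same 19.7% and 18.9% of all genes. Among them were the ubiquitin-editing inhibitor Tnfaip3 (A20), at a log2 of 0.85 ± 0.09 (edgeR adjusted p = 9.22e-06), the deubiquitinase Cyld, at 0.59, and the ubiquitin ligase Birc3, at 0.42. Both directions of the pathway are in this list, since A20 and BIRC3 restrain death and CYLD favours it.

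Of 11 reported genes of mitochondrial and caspase-driven apoptosis, 5 were higher and 2 lower, while the median log2 difference over the 11 was −0.12, of the other sign. The 2 lower genes are a share near the 18.9% of all genes. Cycs, which encodes cytochrome c, rose by a log2 of 0.45 ± 0.06 (edgeR adjusted p = 6.53e-05), Bid, a substrate of caspase-8, by 0.44 ± 0.09, the pore former Bak1 by 0.41 ± 0.06 and the apoptosome scaffold Apaf1 by 0.36 ± 0.11. Of 11 modulators of necroptosis, 2 were higher and 0 lower (median 0.09), a share near the 19.7% of all genes, and these were Eif2ak2, the RNA-activated kinase PKR, at 0.32 and Cdc37, a chaperone partner of HSP90, at 0.12. On zinc, GRDim against GRWT, the lists in the same order had 6, 2, 4 and 1 genes higher and 2, 1, 0 and 0 lower, where 9.81% of all genes were higher and 9% lower, so that the counts of the ubiquitin and modulator lists are near those shares. Among the genes that passed were Fasl at 1.13, Tnfsf10 (the death ligand TRAIL) at 0.66, Apaf1 at 0.40 and Cycs at 0.32.

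With zinc in GRDim mice, Tnf was lower (3.09 to 0.887 CPM, log2 −1.81 ± 0.44, edgeR adjusted p = 0.0262), as were Tnfaip3 (−0.50, adjusted p = 0.00573), Tnfrsf1b (−0.46) and Tnfsf10 (−0.28). Ifngr2, a chain of the interferon gamma receptor, and Casp9, the apoptosome caspase, were higher by 0.25 and 0.24. By list, 1, 0, 1 and 0 genes were higher and 3, 1, 0 and 0 lower, where 4.46% of all genes were higher and 3.24% lower. With zinc in GRWT mice 0 genes of the 4 lists passed by edgeR, with 2, 4, 4 and 0 at an unadjusted p under 0.05, against 0.383% and 11.5% of all genes. For the interaction of zinc and genotype, 0 genes of the lists passed by edgeR, with 1, 5, 2 and 1 at an unadjusted p under 0.05, against 0.263% and 15.5% of all genes. In the muscle-poor class no gene of the 4 lists passed in any comparison by edgeR, with 1, 0, 0 and 0 at an unadjusted p under 0.05 for genotype on water, 6, 7, 3 and 2 for genotype on zinc, 6, 4, 3 and 1 for zinc in GRWT mice and 4, 2, 0 and 0 for zinc in GRDim mice. For GRDim zinc against GRWT water these counts were 2, 3, 0 and 1, and for the interaction 2, 1, 1 and 1. Over all genes the shares at an unadjusted p under 0.05 were 5.63%, 22.9%, 17.1%, 7.89%, 6.51% and 4.66% in these 6 comparisons. These lists were not run with DESeq2 or without GRWT zinc ileum replicate 3.

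**Figure D4:**
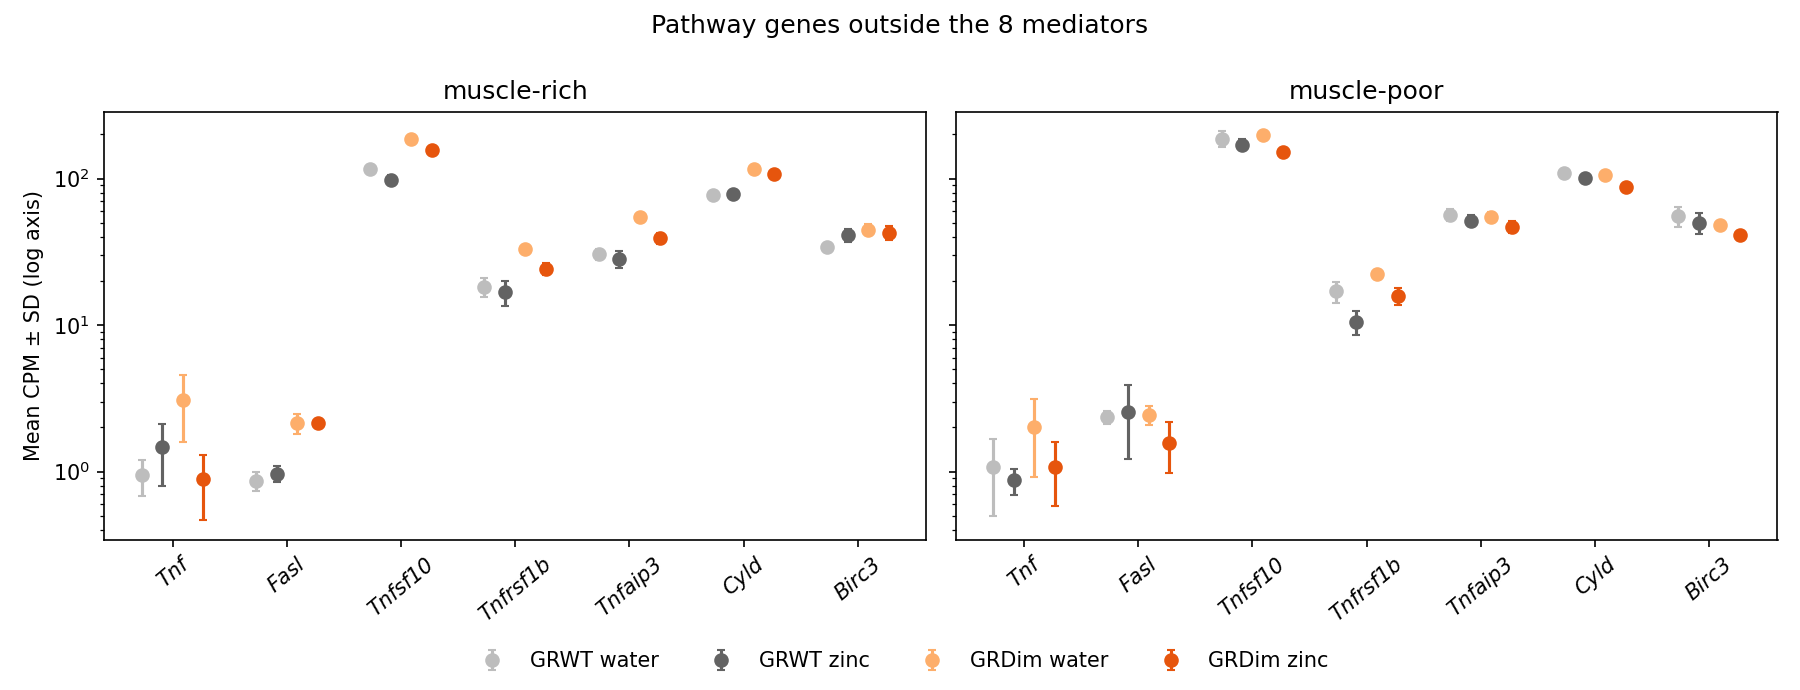
Mean level with SD in CPM (y axis, log scale) of 7 other genes of the death pathway (x axis: Tnf, Fasl, Tnfsf10, Tnfrsf1b, Tnfaip3, Cyld and Birc3), with a colour for each condition, in a panel for muscle-rich and a panel for muscle-poor libraries. In muscle-rich libraries Tnfaip3 stands at 30.5 and 28.4 CPM in GRWT on water and zinc, at 54.3 CPM in GRDim water and at 39.0 CPM in GRDim zinc.

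Among 13328 genes in the 12 muscle-rich libraries, the pattern of Zbp1 was most like that of Psmb8 (Pearson r of log2(CPM + 0.5) 0.996), Psmb9 (0.994), Nlrc5 (0.994), Ubd (0.994) and Tap1 (0.993). Psmb8 and Psmb9 encode immunoproteasome subunits, Tap1 a peptide transporter of antigen presentation and Nlrc5 an activator of MHC class I genes. Mlkl was most like Irf8 (0.995), Gbp7 (0.994), Myl7, Cxcr6 and Lyn (0.993 each), and Ripk3 like G3bp1 (0.985), Cysltr2 and Socs1 (0.982 each), L3mbtl2 and Gmds (0.981 each). Within the 8 genes, Zbp1 had an r of 0.987 with Mlkl, 0.914 with Ripk3, 0.723 with Casp8 and 0.555 with Ripk1. With Tnfrsf1a it was 0.382, with Cflar 0.211 and with Fadd 0.137. Mlkl and Ripk3 had an r of 0.956. The 12 points are the same libraries in 4 conditions and share their cell composition, so these values describe the libraries and carry no test.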

How the data were processed

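Total RNA of distal ileum or scraped epithelium was sequenced by the authors as stranded, single-end libraries, trimmed with Trimmomatic, mapped with HISAT2 to mm10 and counted per gene with featureCounts, leaving out multimapping reads. The deposited values are raw read counts of 54838 Ensembl genes, without normalization. The annotation release and strand setting are not given in the sources used here. Of the identifiers, 54809 were found in GENCODE vM21. A pair of GRDim water ileum libraries shares 1 column name and is unnumbered. Counts were scaled to CPM with TMM library sizes (edgeR 4.0.16, R 4.3.3), and Myh11, Fabp6, Mt1 and marker sums to CPM of the totals. Genes were filtered with filterByExpr and tested with the robust quasi-likelihood test, 1 fit of 4 condition means per muscle class (Myh11 over 100 CPM or not). Benjamini-Hochberg adjustment ran over every gene of a fit, and a gene passed at an adjusted p under 0.05. SEs come from the F statistic, and tests are two-sided. Floors cover counting error only, since reads carry no molecular identifiers. No replicates were identical (lowest chi-square per degree of freedom 4.47). The muscle classes, the 8 genes, the gene and marker lists and the tests were chosen with earlier results of these data known. All 8 genes were named, and in each list up to 4 passing genes with the largest change. Genes most alike were the 5 with the highest Pearson r among genes averaging at least 1 CPM. Alternatives were DESeq2, other size factors, no filter, each library left out, all libraries in 1 fit, and tissue label, muscle class or replicate number as covariates. Some genes of the pathway are not reported here, and the counts leave them out. Scripts were tested on simulated data.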

Additional observations from a re-analysis of the deposited data

Results flagged for a closer look

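A library stood away from the others of its condition in 2 of the 32 groups examined (each gene in each condition, both muscle classes together). Chance flags about 1 in 20 groups drawn from a single normal population. These groups mix the muscle classes, so that rate need not hold for them. Zbp1 was 157 CPM (156.67) in GRDim water ileum replicate 1, where the nearest of the 6 libraries had 124 CPM, a gap of 0.628 of the range, just past Dixon's limit. Tnfrsf1a was 249 CPM (249.22) in GRWT zinc ileum replicate 3, where the nearest of the 5 libraries had 143 CPM, a gap of 0.762 of the range against a limit of 0.71. The latter is the library with 11.7 CPM of Fabp6.

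The genotype difference of 3 genes differed between muscle-rich and muscle-poor libraries by the test of the difference itself (edgeR, 8 means, 22 libraries). On water it was larger in muscle-rich libraries by 2.71 for Zbp1, 1.32 for Mlkl and 0.71 for Ripk3 on the log2 scale. On zinc it was larger by 1.93 for Zbp1 and 0.86 for Mlkl. For GRDim zinc against GRWT water the classes differed by 3.07 for Zbp1, 1.5005 for Mlkl and 0.70 for Ripk3. In the muscle-rich class the GRWT libraries had the lowest summed T cell markers, 72.1 to 121 CPM, and their part in these differences was not tested.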

How the results depend on the processing

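Counts of genes passing, of 8, depended on the setting. In muscle-rich libraries, genotype on water gave 4 (3 to 4 with 1 library left out; 2 with the tissue label). Genotype on zinc gave 4 (2 with the muscle class as covariate over all libraries, 0 with the tissue label, 2 in the numbered libraries without a block). Zinc in GRDim gave 4 (1 to 4 with 1 library left out, 1 without GRDim water IEC replicate 5 or GRDim zinc ileum replicate 2; 2 without the filter; 0 with 8 means; 1 with the muscle covariate and 2 when that fit also dropped GRWT zinc ileum replicate 3; 0 with the tissue label; 1 in the numbered libraries). GRDim zinc against GRWT water gave 3 (3 to 4; 0 with the muscle covariate, with and without that library, with the tissue label, and in the numbered libraries with or without the block). The interaction gave 0 (0 to 2; 2 without GRDim zinc ileum replicate 3; 1 without the filter and 1 by DESeq2), and zinc in GRWT 0 throughout.

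In muscle-poor libraries, genotype on water gave 0 (0 to 0 with 1 library left out; 3 with the muscle covariate, with or without that library, and 2 with the tissue label). Genotype on zinc gave 0 (0 to 3; 2 with 8 means, 2 with the muscle covariate, 3 without that library). Zinc in GRWT gave 0 (0 to 5, 5 without GRWT zinc ileum replicate 2; 2 by DESeq2, 2 with 8 means). Zinc in GRDim gave 0 (0 to 2; 2 by DESeq2, 3 with 8 means, 1 with the muscle covariate, 2 without that library). The interaction gave 0 (0 to 1). Covariate fits with all libraries give 1 value for both classes, set here beside each. Without that library 2 genes differed between classes in GRDim water, against 1, and the class changed the genotype difference on zinc for 1 gene, against 2.

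Replicate numbers did not pair the libraries: deviations of same-numbered libraries had r from −0.10 to 0.14 (25 pairs) and of other numbers from −0.27 to 0.30 (124 pairs). With the replicate block, in 20 numbered libraries, 3 genes passed for genotype on water and on zinc and 3 for zinc in GRDim, where Zbp1 was −1.44. Without the block 3, 2 and 1 passed.

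The call of 1 value reversed: Cflar, genotype on zinc, −0.21 in muscle-poor libraries (not passing), was 0.16 (adjusted p = 0.039) with the muscle covariate and without GRWT zinc ileum replicate 3. Of the other single-gene values, 2153 kept direction and side, 80 lost and 62 gained the call, and 128 changed sign with neither passing, counted as kept. The cause was not tested. At about 0.2 CPM per 3 counts, all 8 genes lay well above the floor in every library.

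Counts over all genes moved as well. In muscle-rich libraries they were 6165 for genotype on water (4983 to 6623 with 1 library left out, 3189 with 8 means, 2654 with the muscle covariate, 574 with the tissue label), 2999 on zinc (2059 to 3185; 731, 1723 and 29), 1228 for zinc in GRDim (399 to 1692; 65, 273 and 23), 2892 for GRDim zinc against GRWT water (2064 to 3391; 712, 105 and 19), 61 for zinc in GRWT (21 to 153; 14, 49 and 16; 182 without the filter, 176 by DESeq2) and 42 for the interaction (5 to 346; 1, 0 and 0; 269 and 301). In muscle-poor libraries, with 1 library left out, they ran from 2 to 463 around 4 for genotype on water, 3 to 7491 around 8 on zinc, 2 to 7080 around 6 for zinc in GRWT, 3 to 738 around 8 for zinc in GRDim, 2 to 371 around 11 for GRDim zinc against GRWT water and 0 to 5702 around 0 for the interaction. By DESeq2 they were 58, 909, 502, 96, 58 and 4, and with 8 means 91, 3046, 1650, 208, 129 and 0. The highest of these single-library values came without GRWT zinc ileum replicate 2 or 3.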
